A study of Mus musculus with 69 samples.

Results

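A set of 9 genes of the circadian clock and its immediate targets was followed by symbol across the series: Nfil3, Bhlhe40, Per1, Per2, Cry1, Nr1d1, Nr1d2, Dbp and Arntl. They are 9 of the 23366 genes of the series, and all 9 were found. The rule used gene symbols, but the list was chosen with earlier results of these data known. The measurements were bulk RNA-seq of mouse naive CD4 T cells held for 72 h with anti-CD3 (1 ug/ml), anti-CD8 at an equal concentration and IL-27 (25 ng/ml), a cytokine that steers them toward type 1 regulatory (Tr1) cells, which make IL-10. Of 69 libraries of 2000 cells each, 63 were used, 35 from cells labelled as lacking a transcription factor and 28 controls, in 11 experiments and 16 comparisons.

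The groups were these, in C57BL/6 cells unless stated, and every group was polarized with IL-27, controls included. A CD4 Cre was carried with floxed alleles of Prdm1, of Maf, of both (Prdm1_Maf_DKO), of Fosl2, Hif1a, Nfil3 and Stat3. Actin Cre was carried with floxed Atf3 and a Cre labelled dLck with floxed Irf8, while Ahr, Batf, Ets1, Irf1, Irf4, Tbx21 and, in BALB/c cells, Irf9 are named as knockouts only. The Prdm1, Maf and double knockouts shared 3 Cre-negative controls, and floxed cells without a stated Cre were the controls of Atf3, Fosl2, Hif1a and Nfil3. Wild-type controls served the others, and Batf, Irf1, Irf8 and Stat3 shared 4 of them in 3 control sets, 2 named by the titles and the third (1 Irf1 control, 2 Irf1 knockout libraries) set by exclusion. Libraries are named by group and replicate number. The labels give 1 time point and not the hour of the day at harvest. They name no animal or culture behind a replicate, so a p-value measures the spread between these libraries, which may be technical.

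The mammalian clock is a loop in which Arntl (BMAL1) pairs with Clock on E-boxes and drives Per and Cry genes, whose proteins then repress that pair. A second loop joins Nr1d1 and Nr1d2, the REV-ERB repressors, with opposing activators on Arntl. Output genes carry D-boxes, which Dbp activates and Nfil3 represses, and Bhlhe40 (DEC1) represses at E-boxes. In mouse T cells Nfil3 and Bhlhe40 are also known outside the clock: Nfil3 as a factor that promotes Il10 and Havcr2, Bhlhe40 as one that restrains Il10.

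Used libraries held 743445 to 15221850 counts, with a median of 2425249, and 10423 to 13850 genes. T-cell markers (5 of 5 found) summed to between 927 and 2900 CPM (counts scaled to a common library total) in every used library, and Tr1 markers (5 of 5) to between 202 and 1720 CPM. Il10 alone ranged more widely, from 0.745 to 126 CPM with a median of 25.6 CPM, so these sums do not show equal Il10 expression in every library. The targeted gene was called lower in the Prdm1, Maf, Batf, Irf4, Stat3 and Tbx21 knockouts, and called higher (log2 change 1.94) in the libraries labelled Atf3 knockout. It was not called in Ahr, Ets1, Fosl2, Hif1a, Irf1, Irf8, Irf9 or Nfil3, with log2 changes from -1.38 (Nfil3, whose 2 knockout libraries were unlike) to 0.87 (Ahr). Counts per whole gene need not fall when part of a gene is deleted, but whether this applies here was not tested. Ribosomal Rn45s took 34 to 40.9% of the counts of the Fosl2 libraries and 43.7% of Irf8_KO 1, which lowers all other CPM there. In bulk RNA, fewer cells that express a gene cannot be told apart from less RNA per cell.

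The 9 genes differed widely in level. On the length-scaled TPM scale, median control levels were 310 TPM for Bhlhe40, 152 for Nfil3, 35 for Per1 and 18.6 for Cry1. They were 7.9 TPM for Dbp and 5.08 for Arntl, and 1.19 for Per2, 1.08 for Nr1d1 and 0.945 for Nr1d2. The counts behind the last 3 were small: 10 or more counts were reached by Per2 in 38, Nr1d2 in 33 and Nr1d1 in 25 of the 63 libraries, against 62 for Nfil3 and 63 for Bhlhe40, Per1 and Cry1.

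Calls concentrated on Nfil3 and Bhlhe40, in a list chosen with earlier results of these data known. Over the 16 comparisons the 9 genes passed the filter on low counts 129 times, and 16 of those tests (12.4%) passed an adjusted p of 0.05 in edgeR's quasi-likelihood test, against 7.65% of all genes tested in the same comparisons (3.43% higher and 4.22% lower). Nfil3 was called 8 times (3 higher, 5 lower), Bhlhe40 5 times (2 higher, 3 lower), Dbp 2 times (both lower) and Per1 1 time (higher). One lower call of Nfil3 and 1 of Bhlhe40 come from libraries labelled Atf3 knockout, where the Atf3 count goes against the label, so their direction is in doubt. Without that experiment Nfil3 had 3 higher and 4 lower calls and Bhlhe40 2 higher and 2 lower. Per2, Cry1, Nr1d1, Nr1d2 and Arntl were called in none of the comparisons in which they were tested.

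**Figure D1:**
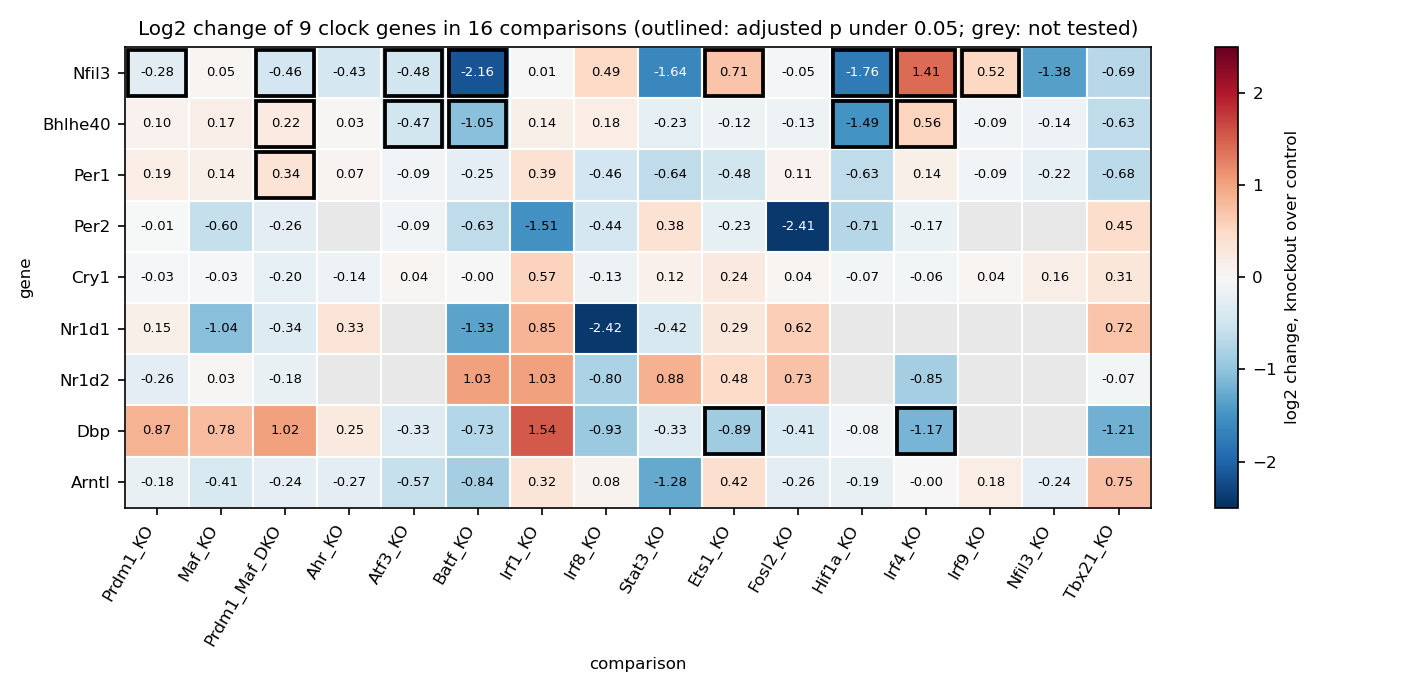
Fitted log2 change, knockout over control, of the 9 genes (rows) in the 16 comparisons (columns); black outlines mark an adjusted p under 0.05 and grey cells genes removed by the filter. Of the 16 outlined cells, 13 lie in the rows of Nfil3 and Bhlhe40; deep cells without an outline include Nr1d1 in Irf8_KO (-2.42), a gene of few counts, and Nfil3 in Stat3_KO (-1.64), a single library.

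By comparison, 3 of 8 tested genes were called in Irf4_KO, where 28% of all genes were called, and 3 of 9 in Prdm1_Maf_DKO, with a background of 19.0%. The counts were 2 of 9 in Ets1_KO (background 20.4%), 2 of 7 in Hif1a_KO (5.55%), 2 of 7 in libraries labelled Atf3 knockout (8.19%) and 2 of 9 in Batf_KO (4.04%). In Prdm1_KO 1 of 9 was called (12.1%) and 1 of 5 in Irf9_KO (4.93%). The called genes were Nfil3 and Bhlhe40 in Hif1a_KO, Batf_KO and libraries labelled Atf3 knockout, these and Dbp in Irf4_KO, and these and Per1 in the double knockout. They were Nfil3 and Dbp in Ets1_KO, and Nfil3 alone in Prdm1_KO and Irf9_KO. The median log2 change over the tested genes of the 9 was -0.73 in Batf_KO, against 0.03 over all genes, and -0.63 in Hif1a_KO, against 0.01 over all genes. In Irf4_KO it was -0.03, against -0.01 over all genes, and in the double knockout -0.20, against 0.01 over all genes. Medians away from that of all genes also came where 0 of the 9 were called. They were -0.44 in Irf8_KO, 0.39 in Irf1_KO and -0.33 in Stat3_KO, against -0.01, 0.01 and -0.03 over all genes. A median of so few genes, some with small counts, does not show a shift of the set.

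In 8 comparisons edgeR called 0 of the 9 genes. The share of all genes called there was 9.02% in Maf_KO, 0.381% in Ahr_KO, 0.479% in Irf1_KO, 0.0452% in Irf8_KO, 1.62% in Stat3_KO, 0.632% in Fosl2_KO, 0.0207% in Nfil3_KO and 6.72% in Tbx21_KO. At an unadjusted p under 0.05 the genes numbered 3 of 9 in Maf_KO, where 23.1% of all genes reached that level, and 5 of 9 in Tbx21_KO, against 26.3% of all genes. They numbered 1 of 7 in Ahr_KO (6.10% of all genes), 1 of 9 in Irf1_KO (7.75%), 1 of 9 in Stat3_KO (13.7%) and 1 of 9 in Fosl2_KO (6.77%). None reached it among 9 in Irf8_KO (5.04% of all genes) and 5 in Nfil3_KO (3.66%). DESeq2 called 2 genes in Tbx21_KO, Nfil3 and Bhlhe40, and 1 in Stat3_KO, Nfil3, and 0 in the other 6. The test of the Prdm1 by Maf interaction called 0 of 9 genes in both tools, with 0 at an unadjusted p under 0.05. Of all genes 1.1% were called for the interaction and 12.2% had an unadjusted p under 0.05.

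Nfil3 (chr13:52967209-52982878, minus strand of GRCm38.p6 in RefSeq; the files themselves were mapped to mm9) encodes the D-box repressor also called E4BP4. Its promoter is shown because Nfil3 is the gene called most often here: the 250 bases before a listed RefSeq transcript start, chr13:52981040-52981289 on the minus strand of GRCm38.p6. This window, inside the gene's span and downstream of its 5′ end, reads

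Nfil3: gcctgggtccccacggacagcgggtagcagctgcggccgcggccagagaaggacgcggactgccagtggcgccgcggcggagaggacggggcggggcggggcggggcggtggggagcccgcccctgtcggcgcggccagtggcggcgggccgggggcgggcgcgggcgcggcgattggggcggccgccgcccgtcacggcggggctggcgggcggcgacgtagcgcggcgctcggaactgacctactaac

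The motifs were searched on both strands: the E-box CACGTG, the D-boxes TTATGTAA and TTACGTAA, the HIF core ACGTG or GCGTG, AP-1 TGANTCA, an interferon response core (GAAA, any 2 bases, GAAA) and the ETS core CCGGAAGT. None of these letters occurs in the window. Of all 32851 windows of equal length in the table, 6.02% hold the E-box, 0.931% a D-box, 38.6% a HIF core (every E-box CACGTG also holds one), 6.75% AP-1, 2.98% the interferon response core and 2.88% the ETS core.

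Called changes of Nfil3 beyond 1.5 on the log2 scale came in Batf_KO and Hif1a_KO, both lower. Nfil3 stood at 29.6 CPM in Batf_KO 1, against 231 CPM in the control of its set, and at 45.1 CPM in Batf_KO 2, against 160 and 100 CPM in the controls of the other set. Both Batf knockout libraries, which lack the AP-1 factor that pairs with Irf4, thus lay below every control. The fitted log2 change was -2.16 ± 0.30 (SE; 2 knockout and 4 control libraries; edgeR adjusted p = 0.000528). CD8 markers (2 of 2 found, neither at 0) summed to 36.8 to 58 CPM in Batf_KO, against 14.1 to 19.6 CPM in the controls of both sets. Myeloid markers (8 of 9 found; Lyz1 and Csf1r at 0 in both groups) summed to 147 to 192 CPM in Batf_KO, against 96.8 to 119 CPM in those controls. The part of either in the result was not tested.

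In Hif1a_KO, cells labelled as deleted for HIF-1 alpha, a factor of the response to low oxygen, Nfil3 was at 72.3 and 78.4 CPM, against 238 and 228 CPM in Hif1a controls. The ranges were far apart, and the log2 change was -1.76 ± 0.18 (SE, n = 2 each, edgeR adjusted p = 4.86e-05). The Hif1a count itself was not called lower (-0.32 ± 0.18, adjusted p = 0.442). B-cell markers (8 of 8 found) summed to 107 and 176 CPM in Hif1a_KO, against 10.2 and 11.5 CPM in its controls, where Ly6d was at 0. CD8 markers summed to 13.4 and 14.7 CPM in Hif1a_KO, against 5 and 7.86 CPM in controls. The part of either in the result was not tested.

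Nfil3 rose in Irf4_KO, cells without the factor that T-cell receptor signals induce, to 417 and 402 CPM, against 163, 135 and 174 CPM in Irf4 controls. Both knockout libraries lay above every other group of the series except Ets1_KO. The log2 change was 1.41 ± 0.09 (SE, n = 2 and 3, edgeR adjusted p = 2.65e-11). B-cell markers summed to 25.7 and 26 CPM in Irf4_KO, against 14.4 to 20.7 CPM in controls, and their part was not tested.

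Ets1_KO cells, labelled as lacking a factor of naive T-cell gene expression, held Nfil3 at 385 and 408 CPM, against 233 and 259 CPM in Ets1 controls. The groups did not overlap, with a log2 change of 0.71 ± 0.09 (SE, n = 2 each, edgeR adjusted p = 0.000308), while the Ets1 count was not called lower (0.20 ± 0.07, adjusted p = 0.0517). CD8 markers summed to 29.5 and 31.9 CPM in Ets1_KO, against 9.89 and 14.8 CPM in its controls; their part was not tested.

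In the libraries labelled Atf3 knockout, whose raised Atf3 count goes against the label and leaves the direction in doubt, Nfil3 was at 227 and 196 CPM, against 271 and 315 CPM in Atf3 controls. It was lower by a log2 change of -0.48 ± 0.11 (SE, n = 2 each, edgeR adjusted p = 0.00268), a call that ended without Atf3_KO 2 (-0.38, adjusted p = 0.0849) or Atf3_Ctrl 2 (-0.38, adjusted p = 0.0799). Beside the raised Atf3 count, these libraries differed from their controls in B-cell markers, 74.1 and 79.3 CPM in libraries labelled Atf3 knockout, against 1.94 and 4.39 CPM in controls, where Cd79a, Blnk, Pax5 and Ly6d were at 0. CD8 markers ran the other way, 14.7 and 16.9 CPM in libraries labelled Atf3 knockout, against 90.9 and 131 CPM in controls. The part of either in the result was not tested.

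In the double knockout of Prdm1 (Blimp-1) and Maf, which in T cells act together on Il10, Nfil3 was at 118 and 101 CPM, against 119, 139 and 169 CPM in the shared controls. The groups came close, 118 against 119 CPM, and the log2 change was -0.46 ± 0.10 (SE, edgeR adjusted p = 0.00292), without Prdm1_Maf_DKO 2 -0.37 (adjusted p = 0.0776). Prdm1_KO alone held 120, 127 and 118 CPM, which overlapped those same controls, and Maf_KO held 140, 154 and 143 CPM, within their range. For Prdm1_KO the fitted log2 change was -0.28 ± 0.09 (adjusted p = 0.0433). That call is narrow: it ended without any 1 of the 3 Prdm1_KO libraries, the 3 Maf_KO libraries of the shared fit or controls 2 and 3, with adjusted p-values from 0.05 to 0.254 and a change of -0.15 without control 3. For Maf_KO the change was 0.05 ± 0.09 (adjusted p = 0.818), and the interaction was -0.22 ± 0.13 (adjusted p = 0.553). B-cell markers summed to 10 and 12.7 CPM in the double knockout and 9.19 to 10.8 CPM in Prdm1_KO, against 1.64 to 3.23 CPM in the controls, where Pax5 and Ly6d were at 0. CD8 markers summed to 16.5 to 21 CPM in Prdm1_KO, against 9.78 to 10.8 CPM in the controls. Their part in the result was not tested.

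Irf9_KO cells, labelled as lacking the DNA-binding part of the interferon complex ISGF3, had Nfil3 at 75.2, 75.1, 93.4 and 98.1 CPM, against 66.2, 44.8 and 66.3 CPM in BALB/c controls. All 4 lay above all 3 controls, with a log2 change of 0.52 ± 0.13 (SE, edgeR adjusted p = 0.0167). The call ended without Irf9_KO 3 (0.47, adjusted p = 0.0549), Irf9_KO 4 (0.46, adjusted p = 0.0542) or Irf9_Ctrl 2 (0.33, adjusted p = 0.295). It also ended when library pairs whose counts nearly matched were summed (0.51, adjusted p = 0.173). B-cell markers summed to 1.51 to 9.21 CPM in Irf9_KO, against 19.1 to 26.2 CPM in controls, a difference whose part was not tested.

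Some changes of Nfil3 missed the threshold. The single Stat3_KO library, from cells without a transducer of IL-27 signals, held 48 CPM, against 160 and 100 CPM in the controls of its set. The log2 change was -1.64 ± 0.42 (SE, edgeR adjusted p = 0.067), with the lone library assumed to vary like the other groups of the fit. Without Linked_Ctrl_setB 2 it was -1.91, and without Irf1_KO 3, a library of another control set in the same linked fit, -1.64. In Stat3_KO myeloid markers summed to 219 CPM, against 96.8 and 119 CPM in those controls, with Lyz1 and Csf1r at 0 in both groups; the part of the others was not tested.

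Tbx21_KO, without T-bet, held Nfil3 at 143 and 182 CPM, against 278 and 207 CPM in Tbx21 controls, a log2 change of -0.69 ± 0.20 (adjusted p = 0.0781) that passed without Tbx21_KO 2 (-0.90, adjusted p = 0.00332). B-cell markers summed to 16.2 to 26.6 CPM in Tbx21_KO, against 9.62 to 10.7 CPM in its controls, and CD8 markers to 22 to 24 CPM, against 12.9 to 16.7 CPM in its controls; their part was not tested. Ahr_KO held 145 and 107 CPM, against 181 and 157 CPM in Ahr controls, a log2 change of -0.43 ± 0.12 (adjusted p = 0.166) that passed without Ahr_KO 1 (-0.70, adjusted p = 0.00091). In Irf1_KO, Irf8_KO and Fosl2_KO the fitted changes were 0.01 ± 0.26, 0.49 ± 0.27 and -0.05 ± 0.28, with adjusted p-values of 0.994, 0.949 and 0.996.

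**Figure D2:**
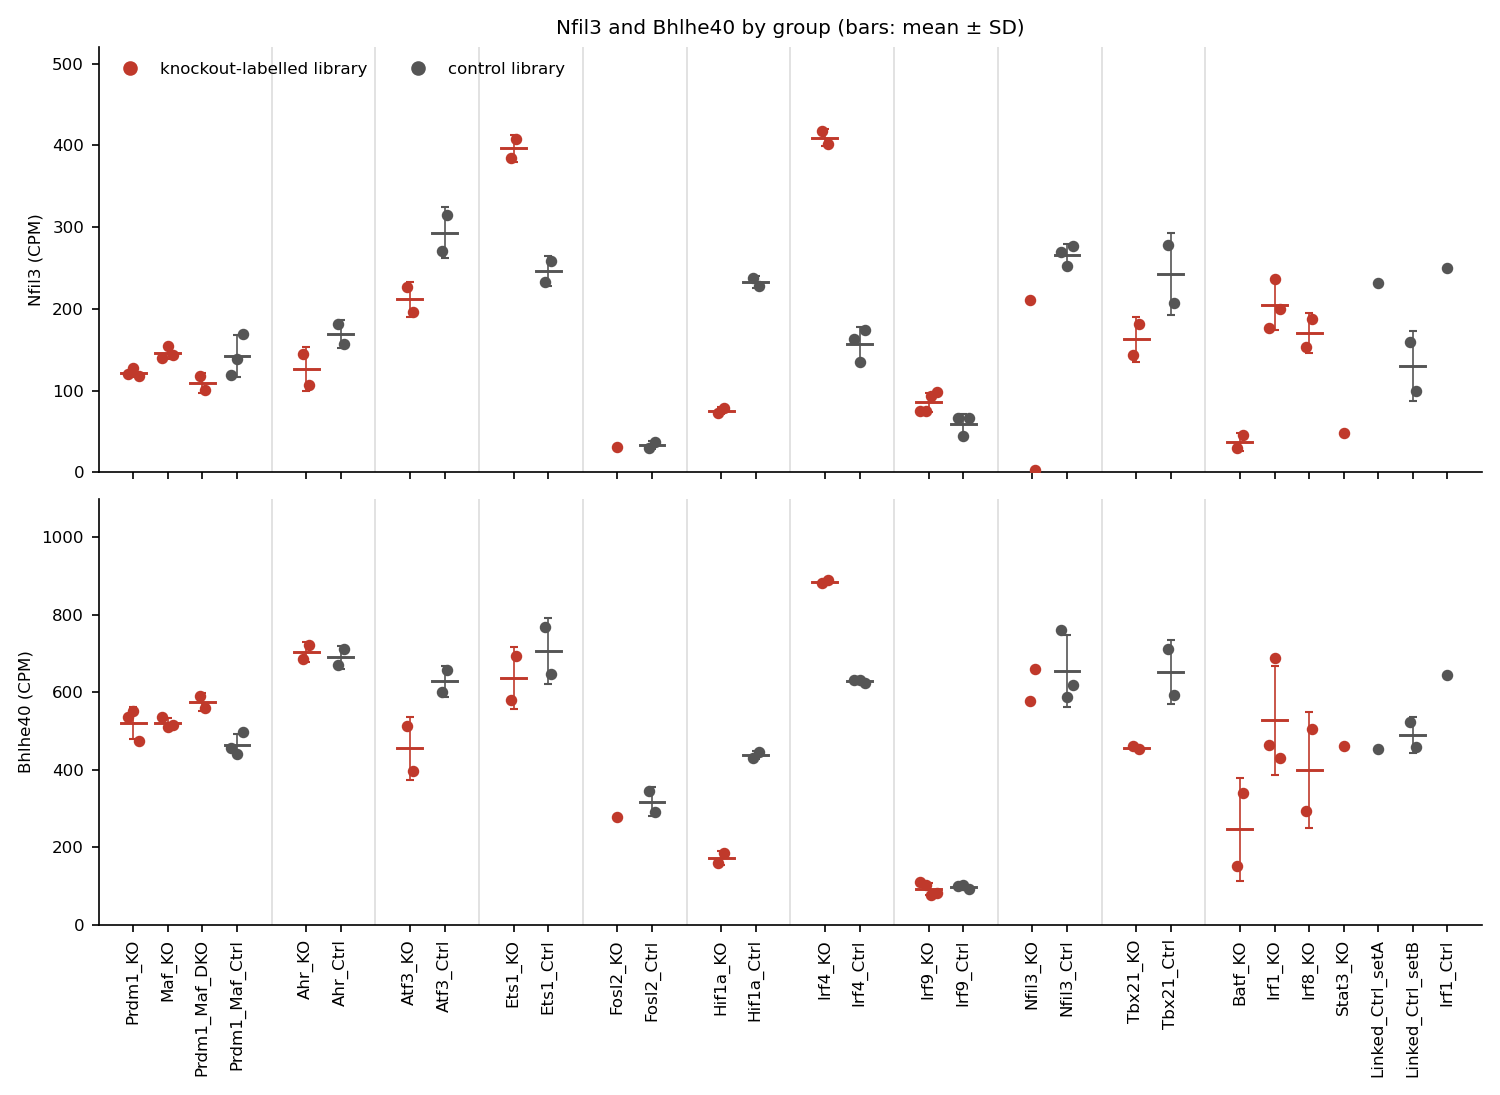
CPM of Nfil3 (top) and Bhlhe40 (bottom) in each of 63 libraries, with knockout groups left of their controls within each experiment; horizontal bars with whiskers are means ± SD, left out for the 2 Nfil3_KO libraries and for single libraries. Nfil3 reaches 417 CPM in Irf4_KO and 408 CPM in Ets1_KO, and the Irf9 experiment stands lowest for Bhlhe40, from 76.1 to 110 CPM.

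The libraries labelled Nfil3 knockout did not match each other. Nfil3_KO 1 held 429 Nfil3 counts (211 CPM, exact Poisson 95% interval 192 to 232) and Nfil3_KO 2 held 6 counts (3.08 CPM, interval 1.13 to 6.71), against 270, 252 and 277 CPM in the floxed controls. Nfil3_KO 1 was thus at 79.1% of the control mean and Nfil3_KO 2 at 1.16% (intervals 71.8 to 87 and 0.424 to 2.52%, counting error only). Together they gave a log2 change of -1.38 ± 0.75 (SE, n = 2 and 3, edgeR adjusted p = 1). Alone against the 3 controls, Nfil3_KO 2 gave -6.46 ± 0.30 (adjusted p = 8.08e-10) and Nfil3_KO 1 gave -0.42 ± 0.14 (adjusted p = 0.231).

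In both of these fits the lone library is assumed to vary like the 3 controls, whose spread alone was measured. Bhlhe40 was at 577 CPM in Nfil3_KO 1 and 659 CPM in Nfil3_KO 2, against 761, 586 and 617 CPM in controls. Per1 was at 127 CPM in Nfil3_KO 1 and 173 CPM in Nfil3_KO 2, against 205, 154 and 143 CPM in controls. For both genes Nfil3_KO 2 lay within the control range and Nfil3_KO 1 just below it, with log2 changes for Nfil3_KO 1 alone of -0.26 ± 0.15 and -0.48 ± 0.19 (adjusted p = 0.477 and 0.305). Dbp, which shares its binding site with Nfil3, was at 2.1 and 2.13 CPM, against 2.97, 3.65 and 9.07 CPM in controls, and did not pass the filter when both libraries were fitted.

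For Nfil3_KO 2 alone, the library with little Nfil3 RNA, the log2 changes were -0.04 ± 0.15 for Bhlhe40 and 0.00 ± 0.19 for Per1. They were 0.04 ± 0.23 for Cry1, -0.10 ± 0.44 for Arntl and -1.39 ± 0.87 for Dbp. Dbp had only 4 counts in that library, so its value rests on little. Per2, Nr1d1 and Nr1d2, at 8, 1 and 7 counts there, are not given from this fit. In that fit 27 genes of 9938 (0.272%) were called. A single library against 3 leaves wide intervals, so these values do not show that the genes were unaffected. B-cell markers (8 of 8 found) summed to 26 to 68.1 CPM over Nfil3_KO 1 and Nfil3_KO 2, against 5.05 to 9.38 CPM in their controls. None was at 0 in either group. Which knockout library held the higher sum is not given here, and the part of these markers was not tested.

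**Figure D3:**
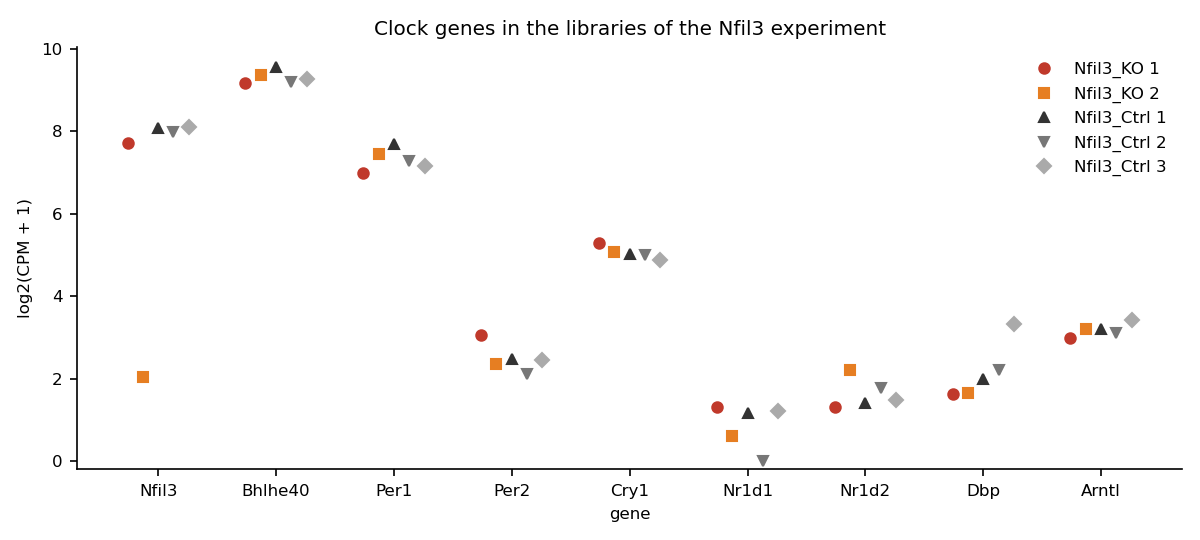
log2(CPM + 1) of the 9 genes in the 5 libraries of the Nfil3 experiment, with the knockout-labelled libraries left of the controls at each gene. Nfil3_KO 2 (3.08 CPM) stands apart from the other 4 libraries (211 to 277 CPM) for Nfil3, while for Bhlhe40 the knockout-labelled libraries (577 and 659 CPM) overlap the controls (586 to 761 CPM).

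Bhlhe40 (chr6:108660629-108666925 of GRCm38.p6, plus strand) encodes the E-box repressor DEC1, and shares 118 of its 4705 exon bases with the antisense gene 0610040F04Rik. It was called lower in Hif1a_KO, Batf_KO and the libraries labelled Atf3 knockout and higher in Irf4_KO and the Prdm1 Maf double knockout; for the libraries labelled Atf3 knockout the direction is in doubt, since their Atf3 count goes against the label. In the first 4 of these Nfil3 was called the same way, and in the double knockout Nfil3 was called lower.

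Bhlhe40 stood at 158 and 184 CPM in Hif1a_KO, against 430 and 445 CPM in controls, a log2 change of -1.49 ± 0.18 (SE, n = 2 each, edgeR adjusted p = 0.000183). In Irf4_KO it stood at 882 and 888 CPM, against 631, 630 and 623 CPM in controls, a log2 change of 0.56 ± 0.08 (adjusted p = 2.97e-06). In both experiments the 2 knockout libraries lay close together and clear of the controls. The marker sums given above for these groups stand beside these results too, and their part was not tested.

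In Batf_KO the libraries differed from each other: Bhlhe40 was at 151 CPM in Batf_KO 1, against 454 CPM in the control of its set, and at 340 CPM in Batf_KO 2, against 523 and 457 CPM in the controls of its set. Both were below their controls, with a fitted log2 change of -1.05 ± 0.26 (SE, edgeR adjusted p = 0.0366). Without Batf_KO 1 the change was -0.58 (adjusted p = 0.646), so its size rests on that library. The call also ended without Linked_Ctrl_setA 1, Linked_Ctrl_setB 1, Irf1_KO 1 or Irf1_Ctrl 2, with changes of at most -0.99 and adjusted p-values from 0.0707 to 0.151. The CD8 and myeloid marker sums given for Batf_KO with Nfil3 differed between the same libraries, and their part was not tested.

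In libraries labelled Atf3 knockout Bhlhe40 was at 512 and 397 CPM, against 599 and 656 CPM in controls, a log2 change of -0.47 ± 0.10 (adjusted p = 0.00207), without Atf3_KO 2 -0.30 (adjusted p = 0.166). In the double knockout it was at 591 and 558 CPM, against 456, 441 and 496 CPM in the shared controls, a log2 change of 0.22 ± 0.07 (adjusted p = 0.033). That small rise missed the threshold without control 1 (adjusted p = 0.0798), control 2 (0.125), Prdm1_Maf_DKO 1 (0.238) or Prdm1_Maf_DKO 2 (0.0948). Prdm1_KO and Maf_KO had changes of 0.10 ± 0.06 and 0.17 ± 0.06 (adjusted p = 0.309 and 0.105), and without Prdm1_KO 3 the one in Maf_KO was 0.17 with an adjusted p of 0.00969. The B-cell sums (74.1 and 79.3 CPM in libraries labelled Atf3 knockout, against 1.94 and 4.39 CPM in controls; 10 and 12.7 CPM in the double knockout, against 1.64 to 3.23 CPM in controls) stand beside these calls too, and their part was not tested.

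In Tbx21_KO Bhlhe40 was at 460 and 452 CPM, against 710 and 593 CPM in controls, a log2 change of -0.63 ± 0.16 whose adjusted p of 0.0507 lay just over the threshold. It passed without Tbx21_KO 1 (-0.61, adjusted p = 0.0253) or Tbx21_KO 2 (-0.65, adjusted p = 0.0264). In the other comparisons the fitted changes of Bhlhe40 lay between -0.23 (Stat3_KO) and 0.18 (Irf8_KO).

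The BALB/c experiment stood apart for Bhlhe40. Its 7 libraries ranged from 76.1 to 110 CPM with a median of 99.3, against 151 to 888 CPM with a median of 536 in the 56 C57BL/6 libraries. The 2 ranges did not meet, also with Rn45s left out of the totals (79.1 to 114 CPM in BALB/c, 155 to 954 CPM in C57BL/6). Per1, by contrast, was at 71.8 to 92.4 CPM in BALB/c, inside the 10.7 to 205 CPM of C57BL/6. Nfil3 was also lower in the BALB/c libraries at the median, 75.1 CPM (44.8 to 98.1), against 166 CPM (3.08 to 417) in the C57BL/6 libraries and 207 CPM (29.9 to 315) in the 25 controls among them. The foot of the C57BL/6 range was formed by Nfil3_KO 2, the Batf_KO libraries and the Fosl2 experiment. All BALB/c libraries came from 1 experiment, so strain and experiment cannot be told apart.

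Ordered by mean level of Nfil3, Irf4_KO (409 ± 10.6 CPM, SD, n = 2) and Ets1_KO (396 ± 16.4 CPM, n = 2) headed the 29 groups with overlapping ranges, and the next, Atf3 controls (293 ± 31.5 CPM, n = 2), lay clear of both. Lowest were Batf_KO (37.4 ± 10.9 CPM, n = 2) and the 3 Fosl2 libraries, from 29.9 to 37.3 CPM. With Rn45s left out of the totals the Fosl2 libraries were at 45.3 to 61.8 CPM and Batf_KO was lowest, at 30.6 and 47.5 CPM. For Bhlhe40, Irf4_KO (885 ± 4.76 CPM, n = 2) stood clear of Ets1 controls (707 ± 85.5 CPM, n = 2), and the foot was formed by Hif1a_KO (171 ± 18.2 CPM, n = 2), Irf9 controls (97.7 ± 5.58 CPM, n = 3) and Irf9_KO (92.2 ± 16.4 CPM, n = 4). Of 28 neighbouring pairs of groups, 23 overlapped for each gene. These levels cross experiments whose libraries were not made side by side as far as the labels say, so only differences within an experiment were tested.

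Per1 and Per2 encode repressors of the Clock and Arntl pair, and Cry1 their partner. Windows of 250 bases before the listed transcript start of Per1 (first of 2 listed starts, chr11:69098699-69098948, plus strand, inside the gene's span, which begins further upstream) and of Cry1 (chr10:85185055-85185304, minus strand) are shown because they are the only ones, of 9 windows covering 7 of the 9 genes, that hold the E-box at which Arntl and Bhlhe40 are known to bind; it is in capitals, in GRCm38.p6:

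Per1: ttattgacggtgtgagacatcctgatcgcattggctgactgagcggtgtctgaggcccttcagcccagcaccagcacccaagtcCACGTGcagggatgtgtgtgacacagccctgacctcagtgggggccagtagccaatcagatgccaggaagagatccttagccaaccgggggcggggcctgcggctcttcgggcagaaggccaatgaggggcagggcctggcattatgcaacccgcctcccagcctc

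Cry1: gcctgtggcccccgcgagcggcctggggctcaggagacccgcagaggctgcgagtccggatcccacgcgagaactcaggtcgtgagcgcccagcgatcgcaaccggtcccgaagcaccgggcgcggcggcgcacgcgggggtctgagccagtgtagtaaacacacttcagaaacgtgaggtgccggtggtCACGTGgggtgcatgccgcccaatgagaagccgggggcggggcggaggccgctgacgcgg

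The E-box begins 166 bases before the start in Per1 and 60 in Cry1. No window of the 7 genes held a D-box, and a match or its lack says nothing here of binding.

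Per1 (chr11:69095108-69109965) was called in 1 comparison. It stood at 55.3 and 54.9 CPM in the Prdm1 Maf double knockout, against 39.6, 40.7 and 42.1 CPM in the shared controls. The replicates were tight and the groups apart, giving a log2 change of 0.34 ± 0.07 (SE, n = 2 and 3, edgeR adjusted p = 0.00247) that stayed past the threshold without any 1 library. Prdm1_KO at 47.8, 49.5 and 48.4 CPM and Maf_KO at 45.5, 44.1 and 44.2 CPM also lay above those controls, with changes of 0.19 ± 0.07 (adjusted p = 0.0764) and 0.14 ± 0.07 (adjusted p = 0.247). The interaction was 0.02 ± 0.10 (adjusted p = 0.967). B-cell marker sums moved with the double knockout here as for Nfil3 (10 and 12.7 CPM, against 1.64 to 3.23 CPM in the controls), and their part was not tested.

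Elsewhere Per1 had fitted values at or below -0.48 with no call in Hif1a_KO, Ets1_KO, Tbx21_KO and Stat3_KO. In Hif1a_KO it was at 71.4 and 82.8 CPM, against 107 and 110 CPM in controls, a log2 change of -0.63 ± 0.18 (adjusted p = 0.0664) that passed without Hif1a_KO 1 (-0.56, adjusted p = 0.0314) or Hif1a_KO 2 (-0.70, adjusted p = 0.00386). In Ets1_KO it was at 41.8 and 51.2 CPM, against 81.1 and 51.2 CPM in controls, a change of -0.48 ± 0.18 (adjusted p = 0.0957) that passed without Ets1_KO 2 (-0.63, adjusted p = 0.0116) or Ets1_Ctrl 2 (-0.74, adjusted p = 1.85e-05).

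In Tbx21_KO Per1 was at 65.2 and 45.1 CPM, against 101 and 61.7 CPM in controls. The groups overlapped in CPM but not with TMM library scaling, where both knockout libraries lay lower. The change of -0.68 ± 0.26 had an edgeR adjusted p of 0.14. It passed without Tbx21_KO 1 (-0.94, adjusted p = 0.00401) or Tbx21_Ctrl 2 (adjusted p = 0.0243). Irf8_KO 1, with 43.7% of its counts on Rn45s, held the lowest Per1 level, 10.7 CPM, against 31.2 CPM in the control of its set; the fitted change in Irf8_KO was -0.46 ± 0.30 (adjusted p = 0.949).

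**Figure D4:**
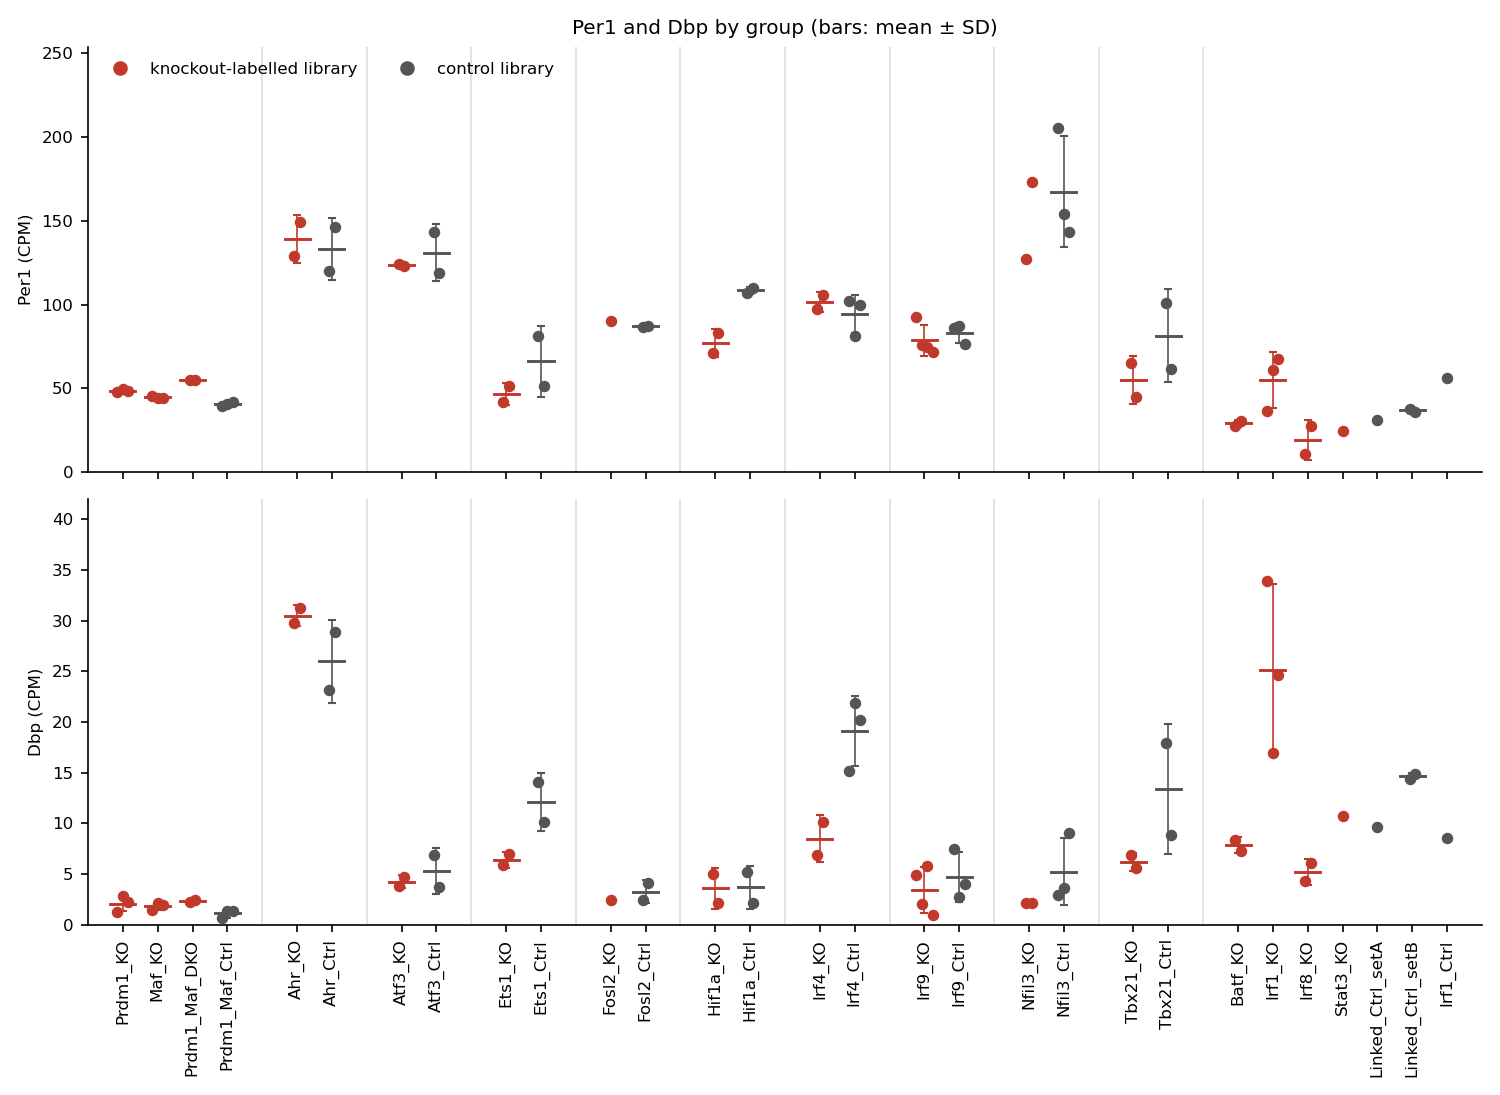
CPM of Per1 (top) and Dbp (bottom) in each of 63 libraries, with knockout groups left of their controls; horizontal bars with whiskers are means ± SD, left out for the 2 Nfil3_KO libraries and for single libraries. Per1 sits at 54.9 and 55.3 CPM in the double knockout, above its controls (39.6 to 42.1 CPM), and Dbp sits at 6.82 and 10.1 CPM in Irf4_KO, below its controls (15.2 to 21.9 CPM).

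Per2 (chr1:91415977-91459351) ranged from 0 to 12.3 CPM with a median of 3.56 CPM and was tested in 13 comparisons. It was at 8.08 and 7.8 CPM in Hif1a_KO, against 12.3 and 11.6 CPM in Hif1a controls, the group with the highest mean, with a log2 change of -0.71 ± 0.32 (adjusted p = 0.292). In Fosl2_KO 2 it was at 0.532 CPM, against 3.44 and 2.56 CPM in controls, a change of -2.41 ± 0.84 (adjusted p = 0.224) that rests on 1 knockout library. In Irf1_KO 1 it had 0 counts, which at that depth allows up to 4.04 CPM, so nothing can be read from it.

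Cry1 (chr10:85131700-85185054) ranged from 11.8 CPM in Irf8_KO 1 to 50.5 CPM in Tbx21_KO 1, with a median of 36.7 CPM. With Rn45s, 43.7% of the counts of Irf8_KO 1, left out of the totals, that library was at 21 CPM and the range was 19.5 CPM (Irf1_KO 3) to 52.7 CPM. It was tested in all 16 comparisons and called in none, with 1 at an unadjusted p under 0.05 (the double knockout, -0.20 ± 0.09, edgeR adjusted p = 0.14) and 0 called by DESeq2. Its fitted changes ran from -0.20 to 0.57, and the highest value, in Irf1_KO, had an adjusted p of 0.716. Of its 28 neighbouring pairs of groups 27 overlapped.

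Nr1d1 (chr11:98767932-98775377) and Nr1d2 (chr14:18204056-18239106), the REV-ERB repressors, were near the limit of detection. Nr1d1 ranged from 0 to 6.73 CPM and Nr1d2 from 0 to 8.85 CPM, and each was tested in 11 comparisons and called in none. Nr1d1 had 0 counts in 5 libraries, which allows up to 1.29 to 2.63 CPM, depending on depth. Its lowest adjusted p was in Maf_KO, at 0.485, 0.203 and 1.26 CPM, against 1.45, 0.924 and 1.64 CPM in controls: -1.04 ± 0.49 (adjusted p = 0.205), and without Maf_KO 3 -1.98 (adjusted p = 0.0469). Nr1d1 shares 263 of its 3077 exon bases with Thra on the other strand in GENCODE, and SMART-Seq2 libraries do not mark strand, so reads there cannot be assigned.

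Dbp (chr7:45705100-45710203), the D-box activator, was called lower in Irf4_KO and Ets1_KO, the same groups in which Nfil3 stood highest. In Irf4_KO it was at 6.82 and 10.1 CPM, against 15.2, 21.9 and 20.2 CPM in controls. The groups did not overlap, and the log2 change was -1.17 ± 0.25 (SE, n = 2 and 3, edgeR adjusted p = 0.00095), or -0.89 without Irf4_KO 1 (adjusted p = 0.0503). In Ets1_KO it was at 5.85 and 6.94 CPM, against 14.1 and 10.1 CPM in controls. There the change was -0.89 ± 0.26 (n = 2 each, adjusted p = 0.0343), and it missed the threshold without Ets1_KO 1 (-0.75, adjusted p = 0.17) or Ets1_Ctrl 1 (-0.67, adjusted p = 0.154). The marker sums given with Nfil3 for both groups stand beside these values too, and their part was not tested.

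Opposite calls of Dbp and Nfil3 were made in these 2 comparisons and in no other of the 14 in which Dbp was tested. Dbp did not pass the filter in Irf9_KO, where Nfil3 was called higher, or in Nfil3_KO. In Hif1a_KO, where Nfil3 fell, Dbp was at 5 and 2.14 CPM, against 5.18 and 2.16 CPM in controls. In Batf_KO it was at 8.39 and 7.26 CPM, against 9.61 CPM and 14.4 and 14.9 CPM in the controls of its sets (-0.73 ± 0.45, adjusted p = 0.513). In Irf1_KO Dbp was at 33.9 CPM, against 9.61 CPM in the control of its set, and at 16.9 and 24.6 CPM, against 8.59 CPM in the other set. All 3 lay above their controls, and the log2 change of 1.54 ± 0.42 had an adjusted p of 0.212.

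Tbx21_KO held Dbp at 6.82 and 5.54 CPM, against 17.9 and 8.85 CPM in controls, a change of -1.21 ± 0.39 (adjusted p = 0.0956). It passed without Tbx21_KO 1 (-1.33, adjusted p = 0.0278) or Tbx21_Ctrl 2 (-1.64, adjusted p = 0.0235). Dbp levels also differed widely between experiments, from 0.618 to 1.38 CPM in the controls of Prdm1 and Maf to 23.1 and 28.9 CPM in those of Ahr. Dbp shares 539 of 2993 exon bases with Sphk2 on the other strand, which unstranded reads cannot resolve.

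Arntl (chr7:113178471-113314126), which encodes the activating arm BMAL1, ranged from 1.07 to 21.5 CPM with a median of 8.22 CPM. It was tested in all 16 comparisons and called in none, with 2 at an unadjusted p under 0.05 and 0 called by DESeq2. Its highest levels were in Tbx21_KO, at 21.5 and 15.5 CPM, against 10.9 and 9.25 CPM in controls, a log2 change of 0.75 ± 0.26 (adjusted p = 0.114), and without Tbx21_KO 2 0.94 (adjusted p = 0.039). In Maf_KO it was at 8.61, 10 and 9.03 CPM, against 11.9, 10.8 and 14.2 CPM in controls, a change of -0.41 ± 0.15 (adjusted p = 0.0916).

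Of 26 other genes of the clock and its regulators listed beside the 9, including the entry Gm129, an older symbol of Ciart, tests were possible in 333 gene and comparison pairs. Of these 31 passed the threshold (9.31%, 13 higher and 18 lower), against 7.65% of all genes. Clock, the partner of Arntl, was tested in all 16 comparisons and Cry2 in 16, and neither was called.

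Arntl2, a paralogue of Arntl, was called higher in Maf_KO, at 4.13, 3.04 and 3.57 CPM, and in the double knockout, at 3.57 and 2.3 CPM, against 0.58, 0.264 and 0.352 CPM in the shared controls (3.07 ± 0.40 and 2.71 ± 0.44, adjusted p = 2.53e-05 and 0.000166). It was also higher in Ets1_KO, at 3.2 and 4.04 CPM, against 0.703 and 0.233 CPM in controls (2.91 ± 0.64, adjusted p = 0.00881). Npas2, a paralogue of Clock, was higher in Prdm1_KO, at 5.08, 4.44 and 3.82 CPM, against 2.03, 2.25 and 1.64 CPM in controls (1.11 ± 0.26, adjusted p = 0.0069). Rora, an activator on Arntl, was higher in Ets1_KO, at 14.3 and 23.8 CPM, against 8.44 and 7.45 CPM in controls (1.28 ± 0.27, adjusted p = 0.00729).

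Also called in the double knockout were Bhlhe41, the paralogue of Bhlhe40, at 2.23 and 0.9 CPM, against 0.483, 0.132 and 0.705 CPM in controls (1.69 ± 0.54, adjusted p = 0.0326), and Per3, at 3.21 and 4.1 CPM, against 1.16, 1.85 and 1.76 CPM in controls (1.13 ± 0.38, adjusted p = 0.0398). In Irf4_KO the calls included Usp2, a clock-controlled protease, at 2.03 and 1.07 CPM, against 6.72, 6.63 and 3.86 CPM in controls (-1.54 ± 0.53, adjusted p = 0.0308), Gm129 (0.95 ± 0.35, adjusted p = 0.0427) and Tipin, at 24.4 and 27 CPM, against 35.8, 38.8 and 51.1 CPM in controls (-0.74 ± 0.17, adjusted p = 0.00147). Tipin, which works at replication forks, and Nampt, an enzyme of NAD synthesis, each had lower calls in 3 comparisons. In Prdm1_KO their log2 changes were -0.26 ± 0.06 and -0.20 ± 0.06 (adjusted p = 0.00405 and 0.0358), and in Maf_KO that of Nampt was -0.25 ± 0.06 (adjusted p = 0.0146).

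Variation between libraries was compared as differences from the mean of each experiment or control set, on the log2(CPM + 1) scale with TMM library scaling over the 63 libraries. These are descriptions over libraries that share experiments, controls and depth. Nfil3 and Bhlhe40 had a Pearson r of 0.49 (Spearman rho 0.52), which was 0.59 without the 2 libraries farthest in Nfil3 and 0.77 over the 58 libraries outside the Nfil3 experiment. Bhlhe40 and Per1 had r = 0.48 and Per1 and Dbp r = 0.49. The other pairs of the 9 genes had r between -0.36 (Nfil3 and Nr1d2) and 0.32 (Nr1d1 and Dbp), many of them with small counts in at least 1 gene. Among them Nr1d1 and Nr1d2 had r = 0.31, Per2 and Cry1 -0.32, Per1 and Per2 -0.19 and Nr1d1 and Arntl -0.10. Nfil3 and Dbp had r = 0.12, and -0.02 outside the Nfil3 experiment.

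Among genes of at least 20 CPM, those with the most similar pattern to Nfil3 were Vim, which encodes the filament protein vimentin (r = 0.64), Id2, an inhibitor of helix-loop-helix factors (0.62), and Hk2, hexokinase (0.61). Nfil3_KO 2 and Batf_KO 1 lay farthest, and without them r was 0.78, 0.73 and 0.66. Without the Nfil3 experiment, where the gene itself was targeted, Vim had r = 0.92 (rho 0.90, n = 58), followed by Pkm, a pyruvate kinase (0.89), and Ppp1r3b, a glycogen-targeting phosphatase subunit (0.88).

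For Bhlhe40 the most similar genes were Eno1, enolase, Pgm2, a phosphoglucomutase in these symbols, and Pgam1, phosphoglycerate mutase, each with r = 0.88 (rho 0.77, 0.77 and 0.76). Without Batf_KO 1 and Hif1a_KO 1 the values were 0.83, 0.81 and 0.81. For Per1 they were Dlg4 (0.78), which encodes a synaptic scaffold protein, Tsc22d4 (0.71) and Tecpr1 (0.69), with values of 0.75, 0.67 and 0.66 without Tbx21_Ctrl 1 and Tbx21_KO 2.

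**Figure D5:**
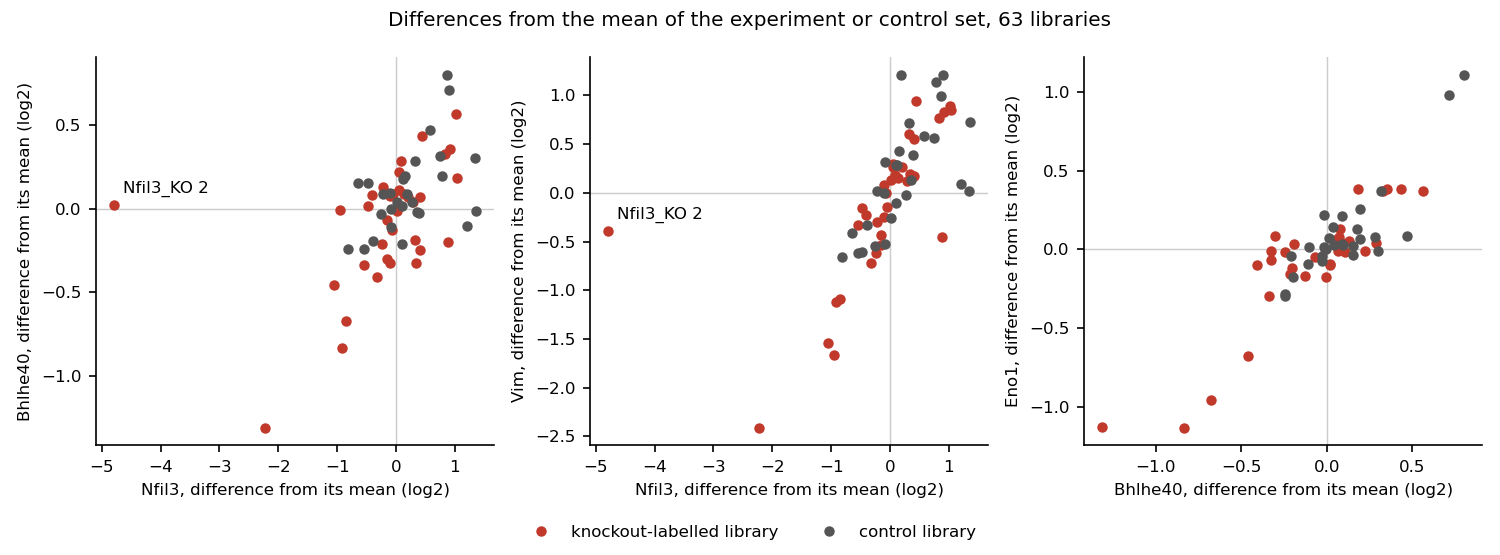
Differences from the mean of the experiment or control set, log2(CPM + 1), in 63 libraries: Bhlhe40 against Nfil3 (left), Vim against Nfil3 (middle) and Eno1 against Bhlhe40 (right), with knockout-labelled libraries in red and controls in grey. Nfil3_KO 2 lies alone at the left for Nfil3 while its Bhlhe40 and Vim are near those of other libraries, and Eno1 follows Bhlhe40 with r = 0.88.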

How the data were processed

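Bulk RNA-seq libraries were made by adapting SMART-Seq2, per the labels' protocols. The authors deposited, per library, expected counts and TPM per gene from RSEM, with TopHat and mm9 also named in the submitters' processing notes; for these no version is given in the sources used here. Expected counts, of which 22.4% of nonzero values are not whole (tolerance 0.005), were rounded. The deposited TPM values were used only to compare levels between genes.

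CPM are expected counts divided by a library's total and scaled. Each experiment was fitted alone in edgeR 4.0.16 (R 4.3.3): filterByExpr, TMM and the quasi-likelihood F-test (glmQLFit, glmQLFTest), Benjamini-Hochberg adjusted over all genes tested. SE is the log2 change divided by the square root of F. The linked Batf, Irf1, Irf8 and Stat3 fit had control set as a term. Replicate 3 of the double knockout, Fosl2_KO 1 and the 4 Cebpb libraries were left out: they held 9059 to 46237 counts, or in Fosl2_KO 1 84.8% Rn45s; Fosl2_KO is then 1 library against 2. Depths were 743445 to 15221850 counts; intervals cover counting error only. Of 44 replicate pairs of libraries none was identical, and in Irf4 and Irf9 those whose chi-square over its degrees of freedom lay under 1.3 (1.07 to 1.26) were summed as an alternative.

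Alternatives were DESeq2 1.42.0, its size factors in edgeR, no filter, a replicate block, Rn45s left out, left-out libraries put back, 1 fit over all used libraries, no control set term, own control sets only, and leaving out each library. The fitting was run on counts simulated from its own fitted spread for some of the experiments. Such counts lack the unlike replicates of some libraries, so that run is no check of the calls given here. Named were all 9 genes, up to 4 called genes per comparison from the list of 26 (results of 1 of them are not reported here), and for Nfil3, Bhlhe40 and Per1 the 3 genes of highest correlation. The members and lists were chosen with earlier results of these data known. Promoter windows are from RefSeq (GRCm38.p6); 7 of 9 symbols matched, Bhlhe40 and Per2 not.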

Additional observations from a re-analysis of the deposited data

How the results depend on the processing

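Of 16 calls of the 9 genes, 5 stayed past the threshold in every alternative: Nfil3 in Batf_KO, Hif1a_KO and Irf4_KO and Bhlhe40 in Hif1a_KO and Irf4_KO. Over all 220 alternative fits of the 16 calls, 173 kept direction and call, 45 kept direction only and 2 changed sign. Both sign changes came with Prdm1_Maf_DKO 3 put back, a library of 9059 counts: Bhlhe40 -0.36 and Per1 -0.16. That fit called 0 of the 9 genes in Prdm1_KO and 0 in Prdm1_Maf_DKO, against 1 and 3. DESeq2 called 1 gene in libraries labelled Atf3 knockout and 1 in Ets1_KO, against 2 in each, 0 in Irf9_KO, against 1, and 1 in Stat3_KO and 2 in Tbx21_KO, against 0 in each. With no filter the counts were 1 in Maf_KO, 1 in Stat3_KO and 3 in Tbx21_KO, against 0 in each. Without the control set term 1 was called in Batf_KO, against 2, and with own control sets only 1 in Stat3_KO, against 0. A single fit over all used libraries, whose shared spread includes the unlike Nfil3_KO libraries, called 0 genes in Prdm1_KO, Prdm1_Maf_DKO, libraries labelled Atf3 knockout, Ets1_KO and Irf9_KO, 1 in Irf1_KO, 1 in Fosl2_KO and 3 in Tbx21_KO. With near-identical library pairs summed, an alternative chosen after seeing the data, 0 were called in Irf9_KO. The causes of these changes were not tested.

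Leaving out 1 library at a time gave 0 to 1 calls in Prdm1_KO, Maf_KO, Ahr_KO, Stat3_KO, Irf9_KO and Nfil3_KO, 1 to 3 in Prdm1_Maf_DKO, 0 to 2 in libraries labelled Atf3 knockout, 1 to 2 in Batf_KO, 1 to 4 in Ets1_KO, 2 to 3 in Hif1a_KO and in Irf4_KO, and 0 to 3 in Tbx21_KO. In Fosl2_KO it could not be done with a spread left to estimate.

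The labels do not say that equal replicate numbers pair libraries. Same-numbered libraries correlated at 0.297 in the Hif1a experiment, 0.18 in Tbx21 and -0.261 and -0.35 in Nfil3, and between -0.0807 and 0.0834 elsewhere. With a replicate block 4 genes were called in Tbx21_KO, against 0, 0 in Irf9_KO, against 1, 2 in Prdm1_Maf_DKO, against 3, and 3 in Hif1a_KO, against 2. Depth limits Per2, Nr1d1 and Nr1d2: the standard errors of their log2 changes reached 1.42, 1.79 and 1.04.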
